A study of Rattus norvegicus with 3 samples.

Results

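Classical D2 medium spiny neurons without Calcr are described here, as 1103 of the 10806 nuclei kept from 3 single-nucleus RNA libraries of rat nucleus accumbens. A nucleus was a member if its summed UMIs (unique molecular identifiers, each 1 captured transcript) of Ppp1r1b, Bcl11b, Pde10a, Rgs9 and Rarb reached 20. The sum of Drd2, Adora2a, Penk and Gpr6 had to reach 3 and be at least 3 times the sum of the D1 genes Drd1, Ebf1, Pdyn and Isl1. The rule also names Tac1 among the D1 genes, which was not analysed here, so that nuclei the full rule would leave out can be members, and the number of D1 nuclei can differ too. Members had 0 UMIs of Calcr, at most 1 of Casz1, Hmcn1 and Otof together, and at most 1 of Grpr and Itgb6 together. Since measured values chose the members, the levels of these genes in them are a description.

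The libraries came from outbred Wistar rats of 16 weeks, classed for anxiety in the elevated plus maze and in tests with an open field and an unfamiliar object. The urolithin A library is from high anxiety rats given urolithin A for 2 months, the high anxiety library from untreated high anxiety rats, and the low anxiety library from untreated low anxiety rats. Each library pooled accumbens punches from 5 hemispheres, so animals cannot be told apart within it. Each group is therefore 1 library without replicates, and no test of a group difference could be made. Intervals in brackets are exact Clopper-Pearson 95% intervals and cover counting error only, and UMIs of 1 nucleus or 1 animal are not independent of each other.

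D2 medium spiny neurons are GABAergic projection neurons of the striatum that give rise to the indirect pathway. Their dopamine D2 receptor couples to inhibitory G proteins and lowers cyclic AMP, while the adenosine A2a receptor on the same cells couples to Golf and raises it. They store enkephalin, made from the precursor encoded by Penk, in dense-core granules. In the accumbens these neurons take part in motivation, aversion and effort.

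Promoter sequences are shown for Drd2 and Gpr6, which chose the members, and for Oprd1, the delta opioid receptor that binds enkephalin and marks D2 neurons without being in the rule. Each is the RefSeq sequence from 250 bases before to 50 bases after the gene's start in build GRCr8, read 5′ to 3′ on the gene's strand. Drd2 lies on the + strand at chr8:58605153-58605452, Gpr6 on the - strand at chr20:46075202-46075501 and Oprd1 on the - strand at chr5:149624950-149625249. Capitals mark GGGCGG, the GC box, and TGACGTCA, the full cyclic AMP response element, searched on both strands.
Drd2: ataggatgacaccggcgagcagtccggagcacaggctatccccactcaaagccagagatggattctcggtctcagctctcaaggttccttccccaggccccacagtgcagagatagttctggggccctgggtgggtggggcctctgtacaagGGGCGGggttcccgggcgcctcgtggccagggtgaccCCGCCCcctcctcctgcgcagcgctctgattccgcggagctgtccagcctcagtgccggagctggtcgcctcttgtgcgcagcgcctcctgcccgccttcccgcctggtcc
Gpr6: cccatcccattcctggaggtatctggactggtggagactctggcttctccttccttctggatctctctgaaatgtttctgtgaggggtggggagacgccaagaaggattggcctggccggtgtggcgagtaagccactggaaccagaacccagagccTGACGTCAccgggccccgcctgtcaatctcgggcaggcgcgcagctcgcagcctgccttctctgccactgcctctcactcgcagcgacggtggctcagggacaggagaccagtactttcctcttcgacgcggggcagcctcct
Oprd1: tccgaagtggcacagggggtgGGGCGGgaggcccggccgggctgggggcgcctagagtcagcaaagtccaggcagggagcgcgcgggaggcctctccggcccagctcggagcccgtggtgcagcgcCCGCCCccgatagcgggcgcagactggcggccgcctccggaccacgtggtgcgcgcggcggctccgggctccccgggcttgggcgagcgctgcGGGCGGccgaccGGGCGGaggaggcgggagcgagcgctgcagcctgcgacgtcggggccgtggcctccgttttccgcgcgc
GC boxes numbered 2 in the Drd2 window, 0 in the Gpr6 window and 4 in the Oprd1 window. The Gpr6 window held 1 full cyclic AMP response element, and the other windows held 0. Among all 33469 promoter windows of this length, 33.1% held a GC box and 1.83% a full response element. These matches describe letters in the windows and say nothing of binding. Of the 5 D2 marker genes, 3 had a sequence, and Adora2a and Penk are named only.

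Members numbered 361 in urolithin A, 385 in high anxiety and 357 in low anxiety. They made up 10.3% (9.27% to 11.3%) of kept nuclei in urolithin A, 10.1% (9.17% to 11.1%) in high anxiety and 10.3% (9.28% to 11.3%) in low anxiety. With nuclei thinned to 4000 UMIs before the rule, which left 2020, 2070 and 1751 nuclei, the shares were 11.7%, 16.1% and 16.2%. Together they held 2616535, 2997174 and 2477017 UMIs in that order of libraries, with medians of 6959, 7377 and 6386 UMIs per nucleus. Mitochondrially encoded genes took 1.15% of members' UMIs in urolithin A, 0.866% in high anxiety and 0.685% in low anxiety. Of the kept nuclei, 3520 were in urolithin A, 3810 in high anxiety and 3476 in low anxiety, and 1 barcode was shared between members of the urolithin A and low anxiety libraries.

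Values of the rule's own genes describe where it drew its lines. The limit on Casz1, Hmcn1 and Otof took D2 nuclei from 549, 592 and 535 to 417, 408 and 385. Otof stood at 14.5, 19.4 and 23.4 CPM in the members themselves. Before the other limits, 196, 122 and 231 nuclei met the D2 limits with a spiny sum under 20. The D1 sum was 0 in 328 of 361 members in urolithin A, 359 of 385 in high anxiety and 316 of 357 in low anxiety. UMIs of all 4 D2 genes of the rule were present in 277, 274 and 244 of them. At the edge of the rule, 5, 6 and 3 members had a D2 sum of only 3 or 4 UMIs, and 5, 8 and 17 nuclei that met every other limit stayed outside with a D2 sum of 1 or 2. The spiny sum was 20 to 22 in 35, 11 and 27 members, and 17 to 19 in 18, 13 and 33 nuclei just outside. Members' median spiny sums were 37, 47 and 38 UMIs, so the minimum lay nearest to the bulk of members in urolithin A and low anxiety.

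Drd2 averaged 477 CPM (UMIs per 1000000 UMIs of all members in a library) in urolithin A, 542 CPM in high anxiety and 543 CPM in low anxiety. Adora2a stood at 409, 417 and 381 CPM in the same order. Penk stood at 2379, 1996 and 2131 CPM, and Gpr6, a constitutively active Gs-coupled receptor, at 340, 289 and 331 CPM. Against high anxiety, Penk was 0.25 (0.20 to 0.31) and Gpr6 0.24 (0.10 to 0.37) higher on the log2 scale in urolithin A, while Drd2 was at -0.19 (-0.29 to -0.08). Over all 5032 measured genes the median of the same ratio was 0.03, and these 4 genes stayed within 0.32 of 0 on the log2 scale in all 3 comparisons. Their UMIs chose the members, so these ratios are a description. In all nuclei other than members, D1 nuclei included, urolithin A over high anxiety gave 0.47 for Penk, 0.48 for Gpr6 and 0.12 for Drd2.

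Oprd1 was at 213 CPM in the D2 nuclei of urolithin A, 228 CPM in high anxiety and 187 CPM in low anxiety. In D1 nuclei, chosen by the mirrored rule, it was at 7.47, 15.6 and 11.1 CPM. With each nucleus thinned to 3000 UMIs, 48.5% (43.2% to 53.8%) of members had an Oprd1 UMI in urolithin A, 46.8% (41.7% to 51.9%) in high anxiety and 37.6% (32.6% to 42.9%) in low anxiety. Before thinning the shares were 67.3%, 73.8% and 62.7%. Oligodendrocytes, which should lack the transcript, had it in 1.21%, 0.738% and 5.56% of thinned nuclei, which is 2 of 165, 2 of 271 and 4 of 72. Before thinning, over all oligodendrocytes at median depths of 2192.5, 2329 and 1844.5 UMIs, the shares were 0.311%, 0.361% and 1.09%. Thinning left out 2, 0 and 1 members, but 799, 836 and 660 oligodendrocytes.

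Other D2-side genes outside the rule were Grik3, Gpr52, Ptprm, Adk, Six3 and Fig4, which with Oprd1 were the 7 measured genes of a list of 12. Measured means at least 300 UMIs summed over the members of the 3 libraries. Gpr52, an orphan Gs-coupled receptor enriched in striatal D2 neurons, stood at 95.5 CPM in urolithin A, 77.7 CPM in high anxiety and 97.3 CPM in low anxiety. It was the only list member at least 0.32 from 0 on the log2 scale with its interval apart from 0, at -0.32 (-0.59 to -0.06) in high anxiety over low anxiety, where 7.49% of all measured genes were lower by that rule. Sp9, a transcription factor of immature D2 neurons in mouse, had a UMI in 0% (0% to 1.02%) of thinned members in urolithin A, 0% (0% to 0.954%) in high anxiety and 0.562% (0.0681% to 2.01%) in low anxiety.

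Compared with D1 nuclei of the same library, 24 genes (0.319% of 7531 genes outside the rule) reached a 2-fold higher level in D2 nuclei in all 3 libraries, and 31 (0.412%) a 2-fold lower one. The receptors led the higher side. Grik3, a kainate receptor subunit, stood at 202, 240 and 224 CPM in the D2 nuclei of urolithin A, high anxiety and low anxiety, against 1.2, 5.52 and 5.97 CPM in their D1 nuclei. P2ry1, a receptor for ADP, stood at 52.7, 33.7 and 48.0 CPM, against 2.18, 1.84 and 3.58 CPM. Both were ranked by the ratio closest to 0 of the 3 libraries, so a higher D2 value in each library follows from the ranking.

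Gpr52 and Oprd1 were at least 4.18 and 3.86 higher on the log2 scale in D2 nuclei than in D1 nuclei in each library. Lower on that scale came Unc5d, a netrin receptor, at 2.76 or more, Npas3, a transcription factor of the PAS family, at 2.34 or more, and Ptprm, a receptor tyrosine phosphatase, at 2.21 or more. Gucy1a1 encodes a subunit of the soluble guanylate cyclase that senses nitric oxide, and it was at 306, 360 and 356 CPM in D2 nuclei against 67.2, 79.4 and 82.7 CPM in D1 nuclei. Myo5c, a class V myosin, was 2.15 or more higher and B3gat1, which makes the HNK-1 carbohydrate, 2.12 or more. Ntng1, a netrin-G protein, was 1.88 or more higher, and Ndst3, which modifies heparan sulfate, 1.86 or more.

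On the lower side, Chrm4, the muscarinic receptor that couples to inhibitory G proteins, stood at 7.26, 6.01 and 6.46 CPM in D2 nuclei against 110, 109 and 117 CPM in D1 nuclei. Il20ra, a cytokine receptor subunit, stood at 0.382, 3.34 and 1.21 CPM in D2 nuclei against 109, 127 and 72 CPM in D1 nuclei. Its urolithin A value in D2 nuclei rests on 1 UMI. Lingo2, a leucine-rich repeat membrane protein, gave log2 ratios of -4.50, -4.41 and -5.44. Adcy2, an adenylyl cyclase, stood at 23.7, 24.7 and 24.2 CPM in D2 nuclei against 179, 166 and 186 CPM in D1 nuclei.

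Values closest to 0 of the 3 libraries were -3.51 for Asic4, a member of the acid-sensing ion channel family, -3.44 for Cntnap3, a contactin-associated protein, and -2.99 for Reln, the secreted protein reelin. Sntg2, a syntrophin, was at -2.40, Kcnk13, a leak potassium channel, at -2.34 and Adarb2, of the RNA-editing adenosine deaminase family, at -2.18. Sfxn1, a mitochondrial serine carrier, was at -1.95, and Rgs6, which speeds the turnover of inhibitory G proteins, at -1.84. Between libraries the log2 ratio of Grik3 ranged over 5.23 to 7.34 and that of Il20ra over -8.15 to -5.25, as the plot of D2 over D1 ratios shows.

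**Figure D1:**
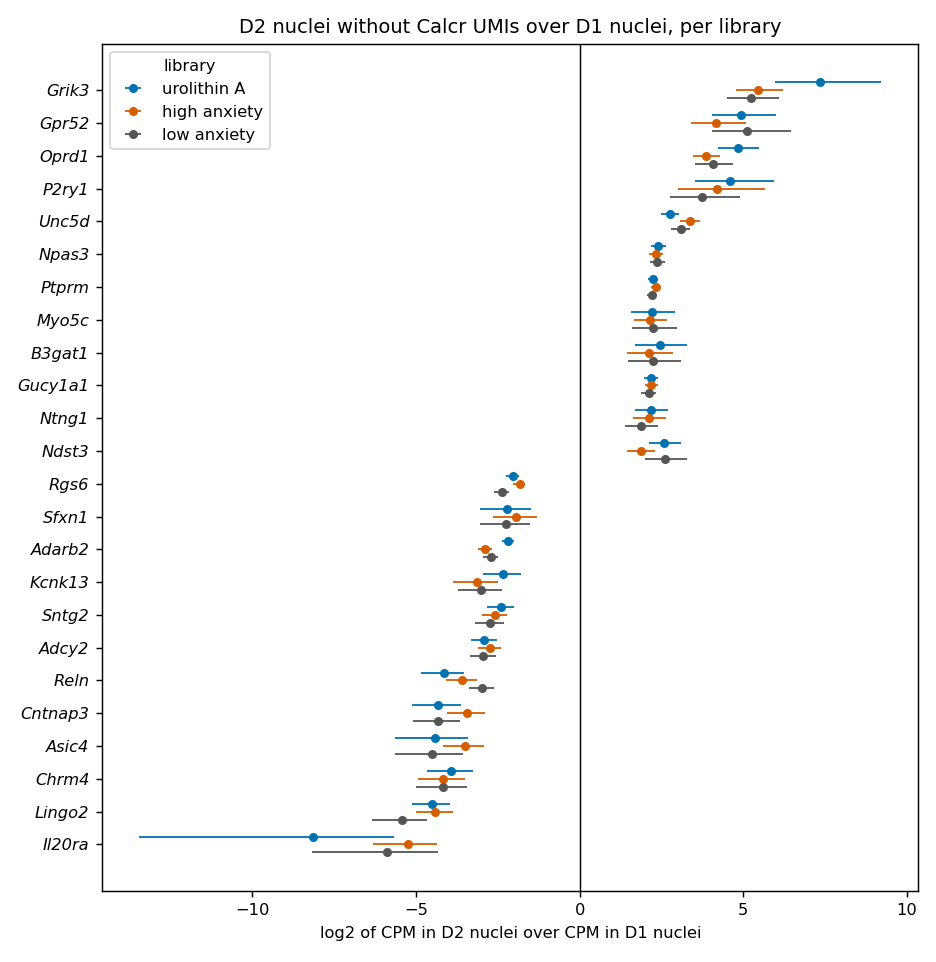
Log2 ratio of CPM in D2 nuclei without Calcr over CPM in D1 nuclei (horizontal axis) for the 12 highest and 12 lowest genes outside the rule, with a point and exact 95% counting interval for each library. All 12 higher genes lie right of 1.8 and all 12 lower genes left of -1.8 in the 3 libraries, and Grik3 and Il20ra are the farthest from 0.

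Nuclei of the D1 class numbered 424 in urolithin A, 387 in high anxiety and 362 in low anxiety. Members per D1 nucleus were thus 0.851 (0.738 to 0.982) in urolithin A, 0.995 (0.862 to 1.15) in high anxiety and 0.986 (0.850 to 1.14) in low anxiety. With 6 UMIs and a 5-fold excess asked of each class, these became 1.27, 1.41 and 1.68, so the ratio depends on the rule and its order between high anxiety and low anxiety as well. D2 nuclei with Calcr numbered 45, 18 and 27, which is 11.1% (8.20% to 14.5%) of D2 nuclei in urolithin A, 4.47% (2.67% to 6.97%) in high anxiety and 7.03% (4.68% to 10.1%) in low anxiety.

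Members were also set against the D2 nuclei with Calcr. Of 294 genes outside the rule with at least 300 UMIs in the nuclei with Calcr, 1 reached a 2-fold higher level in members in all 3 libraries and 2 a 2-fold lower one. Only abundant genes reach that minimum in 90 nuclei, so these counts cannot be set against the 24 and 31 of 7531 genes for D1 nuclei. The minimum was set on the nuclei with Calcr alone, so it favours genes that are high there. Genes higher and lower in members were thus not picked on equal terms, and their counts cannot be compared. Whether some members hold Calcr transcripts that were not captured was not tested. Ntm, the adhesion protein neurotrimin, stood at 1623, 2266 and 2169 CPM in members of urolithin A, high anxiety and low anxiety, against 694, 622 and 972 CPM in nuclei with Calcr. Ppargc1a, a coactivator of mitochondrial biogenesis, stood at 850, 1088 and 1069 CPM, against 476, 481 and 517 CPM. Further genes higher in members in all 3 libraries were Atp2b1, a calcium pump of the plasma membrane, Plcb1, a phospholipase C, AABR07025986.2, Cadm2, Spock3 and Pcsk2, a prohormone convertase, with lowest log2 ratios of 0.80, 0.69, 0.49, 0.42, 0.41 and 0.39.

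Slc8a1, a sodium-calcium exchanger, stood at 225, 135 and 197 CPM in members against 498, 516 and 563 CPM in D2 nuclei with Calcr. Cntnap5a, a neurexin family adhesion protein, stood at 482, 309 and 403 CPM against 1050, 1337 and 864 CPM. Unc5d, Marchf1, a ubiquitin ligase, Cadm1, Tafa2, Rbms3 and Nav3 were lower in members in all 3 libraries, with values closest to 0 of -0.72, -0.67, -0.65, -0.47, -0.47 and -0.46. The Calcr class holds 18 nuclei in high anxiety, where these ratios were widest for Slc8a1 and Cntnap5a. Slc8a1, Cntnap5a, Marchf1, Cadm1 and Tafa2 were also higher in urolithin A members than in high anxiety members. All genes named above as higher in members than in nuclei with Calcr, Ntm and Ppargc1a among them, were lower in urolithin A members. The share of D2 nuclei with Calcr was larger in urolithin A. Unc5d, Rbms3 and Nav3 went the other way, at 295, 828 and 582 CPM in urolithin A members and 316, 848 and 588 CPM in high anxiety members. A part of members with Calcr transcripts not captured in these differences was not tested.

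The 10 genes with the most UMIs in members, not corrected for gene length, were Rbfox1, Phactr1, Nkain2, Kcnip4, Dlg2, Nrxn3, Lsamp, Dgkb, Grm5 and AABR07025986.2. Phactr1, a regulator of protein phosphatase and actin, stood at 8260, 9609 and 9748 CPM in urolithin A, high anxiety and low anxiety, and Kcnip4, a potassium channel partner, at 7573, 6725 and 7309 CPM. Rbfox1, a neuronal splicing factor, stood at 10275, 11346 and 11058 CPM. None of these 10 genes was at least 0.32 from 0 on the log2 scale in any of the 3 comparisons. Among the spiny neuron genes of the rule, Pde10a, the phosphodiesterase of spiny neurons, was at 2204, 2899 and 2786 CPM and Rgs9, which deactivates inhibitory G proteins at the D2 receptor, at 527, 739 and 654 CPM.

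Urolithin A nuclei were set against high anxiety nuclei to ask what accompanied the treatment. A 1.5-fold higher level in urolithin A was reached by 89 of 5032 genes (1.77%), and a 1.5-fold lower one by 24 (0.477%). With nuclei thinned to 4000 UMIs before the rule, 12 were higher and 10 lower. Among the 8 highest were Npy, Sst, Cd9, Ptgds, Cldn11, Apod and Mast4. Npy and Sst encode interneuron peptides, and Cldn11 and Ptgds are oligodendrocyte genes. Npy stood at 134 CPM in urolithin A, 5.34 CPM in high anxiety and 325 CPM in low anxiety, and 1 nucleus gave 91.7% of the urolithin A UMIs. Cd9, a tetraspanin abundant in oligodendrocytes, stood at 62.3, 12.7 and 55.3 CPM.

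Markers of other classes moved with this list. The 8 oligodendrocyte markers summed to 487 CPM in urolithin A members, 161 CPM in high anxiety and 419 CPM in low anxiety, and 15, 5 and 13 members with 5 or more such UMIs gave 75.9%, 29.9% and 77.6% of them. The 9 GABAergic interneuron markers summed to 214, 30.0 and 472 CPM, and 4, 1 and 4 members gave 86.6%, 24.4% and 94.9% of those UMIs. Npy and Sst are among these markers, so that sum counts their UMIs again. The 8 astrocyte markers summed to 47.8, 55.1 and 133 CPM, the 8 microglia markers to 56.2, 63.7 and 60.2 CPM, and the 7 markers of oligodendrocyte precursors to 32.9, 13.3 and 42.4 CPM. The 7 glutamatergic markers summed to 91.3, 134 and 98.1 CPM, of which all but 20, 88 and 28 UMIs were Sv2b, a synaptic vesicle gene that spiny neurons also express, and the 3 cholinergic markers in the tables to 3.06, 2.00 and 10.5 CPM. No marker of these lists was at 0 in members of all 3 libraries.

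Leaving out members with 5 or more UMIs of such markers other than Sv2b, a choice made after the data were seen, removed 34, 29 and 36 nuclei and left 327, 356 and 321. Without them 45 genes reached a 1.5-fold higher level in urolithin A than in high anxiety. Npy and Sst are among the markers used, so the limit itself bounds them. Npy then stood at 9.20, 5.96 and 8.99 CPM in urolithin A, high anxiety and low anxiety. Cd9, which is not among the markers, was at 0.23 on the log2 scale in urolithin A over high anxiety, where all members gave 2.30. Cldn11 turned round, at -0.38 against 1.96 with all members. The plot of ratios with and without these nuclei shows that the 7 highest genes drawn all moved towards 0 or past it. Among the 8 lowest, Hs6st3 moved most, to -0.57, and the others stayed at -0.65 or lower.

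**Figure D2:**
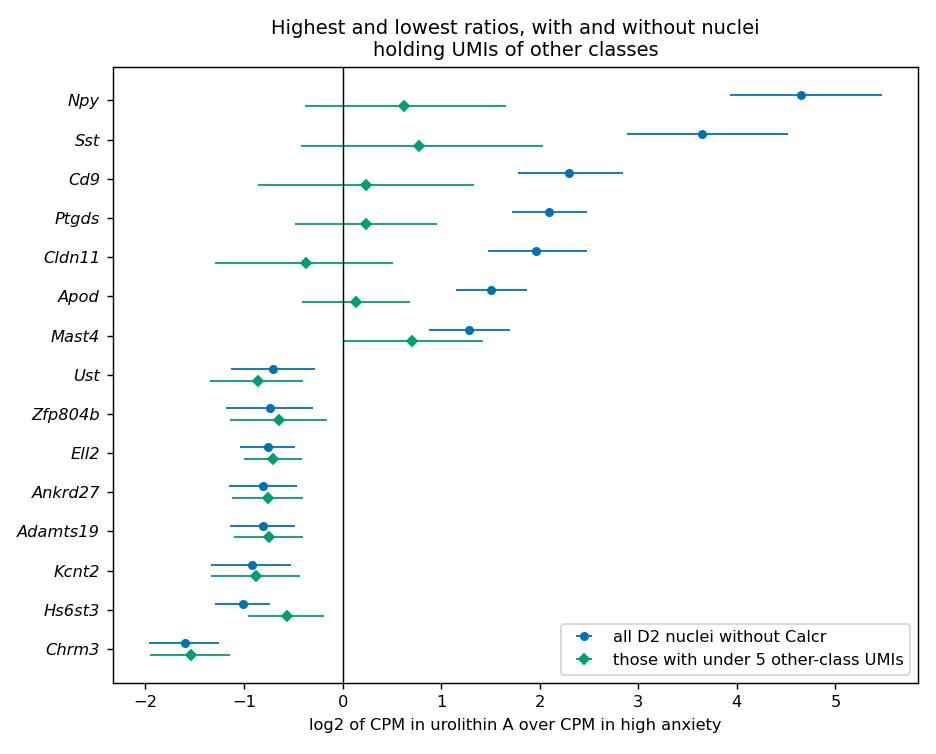
Log2 ratio of CPM in urolithin A over high anxiety (horizontal axis) for 7 of the 8 highest and for the 8 lowest measured genes, with exact 95% counting intervals. Circles are all D2 nuclei without Calcr and diamonds those with under 5 UMIs of other-class markers. Npy, itself such a marker and so bounded by the limit, falls to 0.63 there, and Chrm3 is at -1.54.

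The 8 highest genes of the remaining nuclei were Gnas, Slc8a1, Gnai1, Ssr4, Grk5, Ndn, Mesd and Itm2b. Gnas, the stimulatory G protein alpha subunit, stood at 129 CPM in urolithin A, 69.6 CPM in high anxiety and 95.6 CPM in low anxiety, a log2 ratio of 0.89 (0.62 to 1.16) in urolithin A over high anxiety. Its all-member values were 148, 74.1 and 108 CPM. Slc8a1, also higher in D2 nuclei with Calcr than in members, stood at 217, 119 and 196 CPM. Ssr4, a subunit of the translocon-associated complex of the endoplasmic reticulum, stood at 78.0, 45.1 and 48.7 CPM. Itm2b, a membrane protein of the secretory route, stood at 255, 149 and 240 CPM. High anxiety had the lowest of the 3 values for each of these 4 genes. Mesd, a chaperone of the endoplasmic reticulum, was at 0.79 in this ratio and Ndn, the imprinted gene necdin, at 0.79.

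Chrm3, a muscarinic receptor that couples to Gq, was the lowest gene in urolithin A over high anxiety, with 33.3 CPM in urolithin A, 101 CPM in high anxiety and 52.5 CPM in low anxiety. Its log2 ratio was -1.60 (-1.96 to -1.25) in urolithin A over high anxiety and 0.94 in high anxiety over low anxiety. In D1 nuclei the same ratios were -0.67 and 1.02. Kcnt2, a sodium-activated potassium channel, stood at 29.0, 55.1 and 54.1 CPM in members, so that urolithin A was the low library. Adamts19, a secreted metalloprotease, stood at 44.3, 77.7 and 70.6 CPM and Ell2, an elongation factor of RNA polymerase, at 61.9, 105 and 96.5 CPM, with urolithin A again below both others. Hs6st3, Ankrd27, Zfp804b and Ust completed the 8 lowest, at -1.01, -0.80, -0.74 and -0.70.

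High anxiety nuclei were set against low anxiety nuclei to ask what accompanied the trait. The same high anxiety library stands below the line in the comparison with urolithin A and above it here, so a low value in it alone gives ratios of opposite sign. A 1.5-fold higher level in high anxiety was reached by 83 genes (1.65%), and a 1.5-fold lower one by 86 (1.71%), and thinning in the same way gave 35 and 25. Ctnna3, the adherens junction protein alpha-T catenin, stood at 453 CPM in high anxiety and 181 CPM in low anxiety, a log2 ratio of 1.32 (1.17 to 1.48), and at 370 CPM in urolithin A. Kdelr3, which returns proteins to the endoplasmic reticulum, stood at 190 CPM in high anxiety and 70.6 CPM in low anxiety, and at 150 CPM in urolithin A. Rims3, a protein of the presynaptic active zone, stood at 140 CPM in high anxiety and 58.1 CPM in low anxiety, and at 137 CPM in urolithin A. For these 3 genes low anxiety was the low library, and D1 nuclei gave 1.39, 1.12 and 1.04 in high anxiety over low anxiety.

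Gm17606, Tspan4, RGD1359290, Dpysl3 and LOC120101775 were the other genes among the 8 highest, with log2 ratios of 1.47, 1.42, 1.39, 1.32 and 1.29. Dpysl3 is a collapsin response protein of growing axons, and Tspan4 a tetraspanin. Among the 8 lowest with all members were Npy, Sst, Cd9, Apoe, Mast4, Ptgds and Cldn11, from -5.93 to -1.52, with the other-class sums above beside them. Without the nuclei holding such UMIs the 8 lowest were Shfl, Hcfc1r1, Haghl, RGD1565158, Antkmt, Plppr3, Rbm3 and Ptov1. Rbm3, a cold-inducible RNA-binding protein, stood there at 128 CPM in high anxiety and 230 CPM in low anxiety, and Shfl, an antiviral inhibitor of ribosomal frameshifting, at 65.5 and 130 CPM.

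Urolithin A over low anxiety shares its libraries with the other comparisons. There 129 genes (2.56%) reached a 1.5-fold higher and 40 (0.795%) a 1.5-fold lower level in urolithin A, while that thinning gave 55 and 9. The highest were LOC120101775, Rims3, Timp3, Gusb, Filip1l, Mt-nd4l, Mt-atp6 and Myo3a. Timp3, an inhibitor of metalloproteases, stood at 89.8 CPM in urolithin A, 83.1 CPM in high anxiety and 40.8 CPM in low anxiety, and Gusb, the lysosomal beta-glucuronidase, at 59.6, 40.7 and 27.5 CPM. The lowest were Npy, Nxph1, Gpc5, Apoe, Msi2, Sst, Kcnt2 and Zfp804b, from -1.28 to -0.89. Nxph1, Apoe, Gpc5 and Sst mark interneurons or astrocytes, whose sums were highest in low anxiety.

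Receptors and their G proteins form the input side of these neurons. By that rule for lists, 8.9% of all measured genes were higher and 3.34% lower in urolithin A over high anxiety, 6.34% higher and 7.49% lower in high anxiety over low anxiety, and 10.5% higher and 5.09% lower in urolithin A over low anxiety. Of 18 measured receptors coupled to G proteins, 0 were higher and 2 lower in urolithin A over high anxiety, Chrm1 at -0.34 and Gpr158 at -0.34. Chrm3, a muscarinic receptor with a ratio of -1.60 in that comparison, is not in this list. Against low anxiety, high anxiety gave 2 higher, Oprm1, the mu opioid receptor, at 0.59 and Chrm1, a muscarinic receptor, at 0.57, and 2 were lower, Gpr155 at -0.35 and Gpr52 at -0.32. In urolithin A over low anxiety Oprm1 was higher at 0.55, and Htr4, Gpr158 and Hrh3 were lower at -0.38, -0.38 and -0.34. The list medians were -0.09, -0.02 and -0.06, against 0.03, 0.00 and 0.02 over all genes.

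Of 18 measured G proteins and regulators, 5 were higher and 1 lower in urolithin A over high anxiety, with a median of 0.09. Gnas was highest at 0.99 (0.75 to 1.24), followed by Gnai1, an inhibitory alpha subunit, at 0.70 (0.39 to 1.00), and Grk5, a kinase that desensitises receptors, at 0.67. Rgs14 and Rgs10, which speed G protein turnover, were at 0.49 and 0.40, but at -0.090 and -0.063 with nuclei thinned to 4000 UMIs before the rule. Gnb5, the beta subunit that pairs with Rgs9, was lower at -0.49, with 92.1 CPM in urolithin A, 130 CPM in high anxiety and 95.7 CPM in low anxiety. In high anxiety over low anxiety 1 was higher, Gnb5 at 0.44, and 4 were lower, Gnas at -0.54, Gnai1 at -0.39, Gnb2 at -0.38 and Grk5 at -0.33.

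Gnas in D1 nuclei gave 0.46 in urolithin A over high anxiety and -0.44 in high anxiety over low anxiety, and all nuclei other than these members and the D1 nuclei gave 0.96 and -0.51. The ratio of urolithin A over low anxiety had 3 higher, Gnas at 0.45, Rgs10 at 0.44 and Grk5 at 0.34, and 2 lower, Rgs7bp and Gprin3, both at -0.36, while Rgs10 gave -0.029 on that thinning.

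In the cyclic nucleotide and PKA cascade, 3 of 30 measured genes were higher in urolithin A over high anxiety and 0 lower. Pde1a and Pde1c, calcium-dependent phosphodiesterases, were at 0.58 and 0.56, and Prkg1, the kinase activated by cyclic GMP, at 0.35. Pde1c stood at 415 CPM in urolithin A, 282 CPM in high anxiety and 342 CPM in low anxiety, and Prkg1 at 787, 617 and 584 CPM. Akap5 and Akap9, which anchor PKA, were higher in high anxiety over low anxiety, both at 0.43, and 0 genes were lower. Against low anxiety, urolithin A had 5 higher, Akap5 at 0.47, Prkg1 at 0.43, Pde1a at 0.37, Creb1 at 0.36 and Prkar2a at 0.35. Medians were -0.06, 0.05 and 0.00.

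Among 22 regulators of Ras, Rap and related small GTPases, 2 were higher and 2 lower in urolithin A over high anxiety, Rasal1 at 0.43 and Rgl1 at 0.38, and Arhgef3 at -0.51 and Rasgrp1 at -0.48. High anxiety over low anxiety had 0 higher and 2 lower, Dock10 at -0.44 and Rasal1 at -0.38, and urolithin A over low anxiety had 0 higher and 1 lower, Arhgef3 at -0.60. The list medians were -0.04, 0.01 and -0.07.

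Neuropeptides and dense-core granule genes had 15 measured genes of 25. In urolithin A over high anxiety 9 were higher and 1 lower, with a median of 0.51. Scg2, Scg3, Scg5, Chga and Chgb encode granins, Vgf a granule peptide precursor and Pcsk1n an inhibitor of prohormone convertase, and these 7 with Npy and Sst were the higher genes. Scg5 stood at 1075 CPM in urolithin A, 821 CPM in high anxiety and 898 CPM in low anxiety, and Pcsk1n at 593, 405 and 570 CPM. Chga stood at 370, 241 and 275 CPM, Chgb at 374, 262 and 333 CPM and Scg2 at 258, 176 and 216 CPM. High anxiety was the low library for each of these.

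On the log2 scale the urolithin A over high anxiety ratios were 0.68 for Scg3, 0.66 (0.45 to 0.88) for Vgf, 0.62 (0.47 to 0.76) for Chga, 0.55 for Pcsk1n, 0.55 for Scg2, 0.51 for Chgb and 0.39 for Scg5. Nts, the precursor of neurotensin, went the other way at -0.54 (-0.74 to -0.33), with 122, 178 and 155 CPM. The ratio of high anxiety over low anxiety had 0 genes higher and 8 lower, with a median of -0.34, among them Vgf at -0.68, Scg3 at -0.66, Pcsk1n at -0.49, Chgb at -0.34 and Cartpt, the precursor of the CART peptides, at -0.34. The other 3 were Npy, Sst and Nxph1, and Scg3 gave 0.18 on thinning to 4000 UMIs before the rule. Against low anxiety, urolithin A had 1 higher, Chga at 0.43, and 4 lower, Npy, Nxph1, Sst and Nts, with a median of -0.02.

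Without the nuclei holding other-class UMIs, 7 of the granule genes were higher in urolithin A over high anxiety, at a median of 0.41, and 3 were lower in high anxiety over low anxiety, at a median of -0.13. With nuclei thinned to 4000 UMIs before the rule the medians were 0.30 and -0.11. In D1 nuclei Chga gave 0.71, Scg2 0.59, Pcsk1n 0.45, Chgb 0.40 and Vgf 0.12 in urolithin A over high anxiety, and in nuclei other than members and D1 nuclei these genes gave 1.01, 0.75, 0.93, 0.65 and 0.48. The plot of granule genes gives their levels in each library with and without the nuclei left out.

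**Figure D3:**
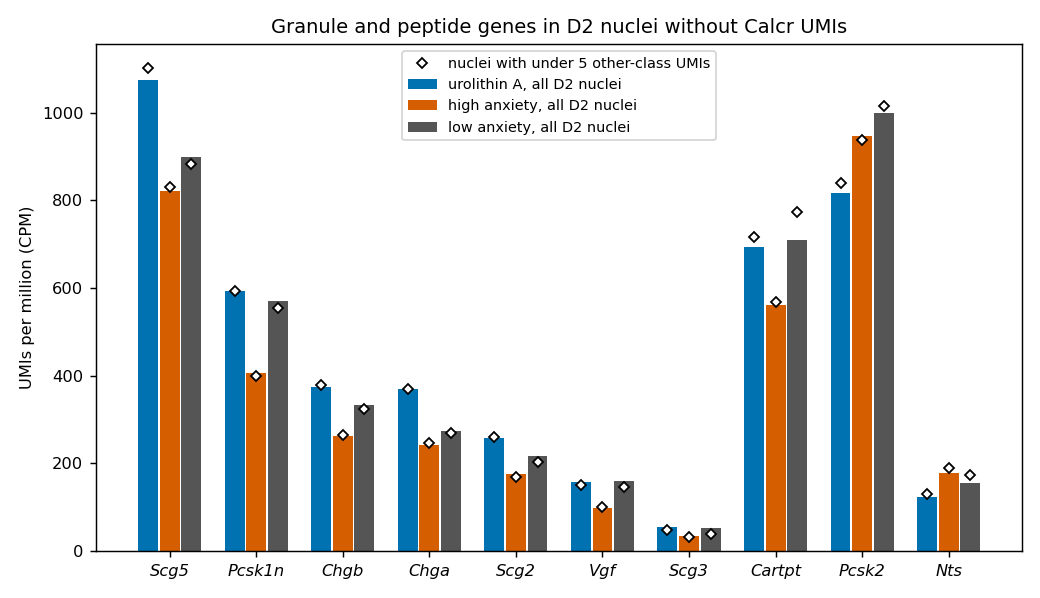
CPM (vertical axis, UMIs per 1000000) of 10 granule and peptide genes in D2 nuclei without Calcr, by library. Bars are all members and diamonds those with under 5 UMIs of other-class markers. High anxiety has the lowest bar for Scg5, Pcsk1n, Chgb, Chga, Scg2, Vgf, Scg3 and Cartpt, while Nts is highest there.

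Mitochondrially encoded genes, which code for respiratory chain and ATP synthase subunits, formed a list with 11 of 13 genes measured. In urolithin A over high anxiety 8 were higher and 0 lower, with a median of 0.41. In high anxiety over low anxiety 6 were higher and 0 lower, with a median of 0.38, and in urolithin A over low anxiety all 11 were higher, with a median of 0.87. Mt-atp6, a subunit of the ATP synthase, stood at 1927 CPM in urolithin A, 1408 CPM in high anxiety and 899 CPM in low anxiety. Mt-cyb, cytochrome b, stood at 1554, 1039 and 923 CPM, and Mt-nd1, a subunit of complex I, at 1027, 772 and 518 CPM. Urolithin A was highest and low anxiety lowest for these 3 genes.

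Mt-nd3 and Mt-nd4l, also of complex I, stood at 127, 131 and 62.2 CPM and at 97.1, 101 and 45.2 CPM, so low anxiety was the low library. Their ratios of high anxiety over low anxiety were 1.08 and 1.16. Mt-co3 of cytochrome oxidase stood at 1555, 1130 and 1127 CPM. In D1 nuclei Mt-atp6 gave 0.20 and Mt-co3 0.23 in urolithin A over high anxiety, and 0.50 and -0.08 in high anxiety over low anxiety. Nuclei other than members and D1 nuclei gave 0.36 and 0.29, and 0.19 and -0.23, for the same genes. Among nuclei held to 1% mitochondrial UMIs and 1000 or more genes, the list medians were 0.13, 0.13 and 0.15, a limit that itself bounds these genes. In nuclei such transcripts can come from cytoplasm left on the nucleus, and the part of that in these differences was not tested.

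**Figure D4:**
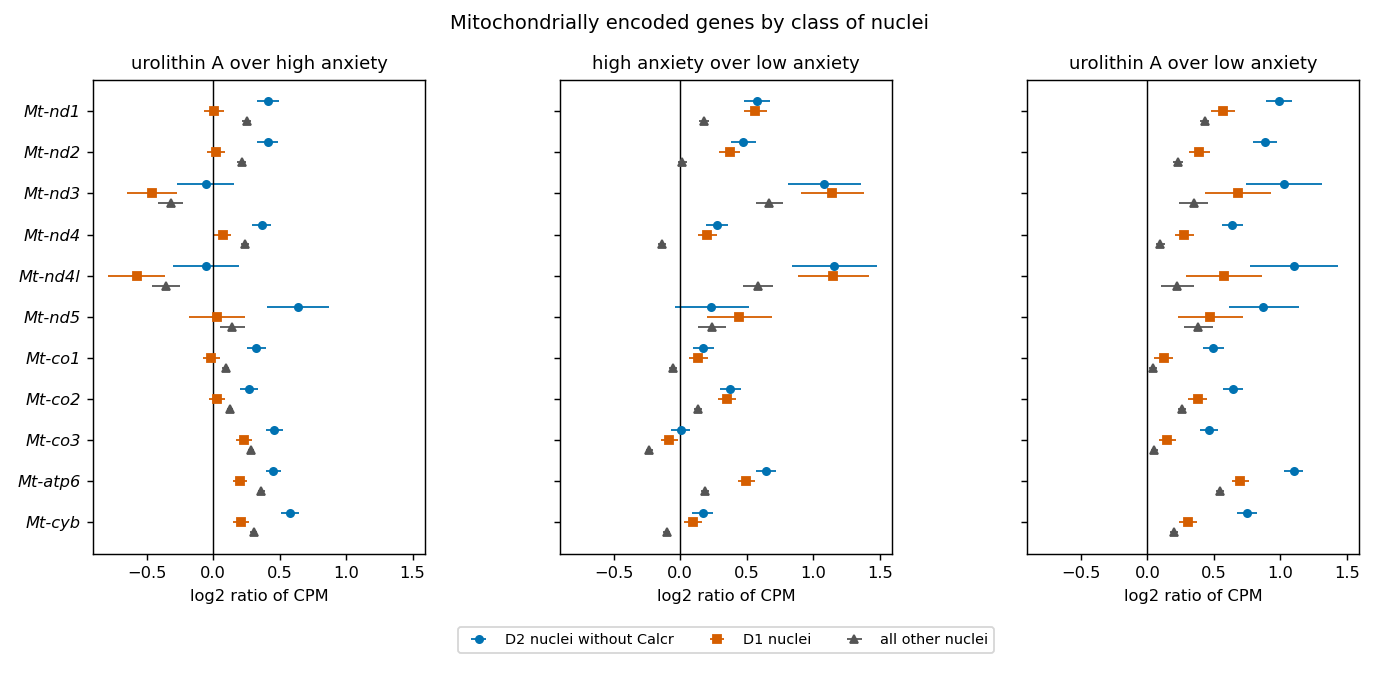
Log2 ratios of CPM (horizontal axis) for the 11 measured mitochondrially encoded genes in 3 comparisons, with exact 95% counting intervals, in D2 nuclei without Calcr (circles), D1 nuclei (squares) and all other nuclei (triangles, D2 nuclei with Calcr included). In urolithin A over low anxiety the D2 nuclei lie right of 0.4 for all 11 genes, and right of both other classes.

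Urolithin A is known to promote mitophagy, the removal of damaged mitochondria, in other tissues. Of 19 measured nuclear genes of mitophagy and mitochondrial quality control, 1 was higher and 1 lower in urolithin A over high anxiety, Map1lc3a, an autophagosome protein, at 0.46 and Ppargc1a at -0.36. Ppargc1a, also lower in D2 nuclei with Calcr than in members, stood at 850 CPM in urolithin A, 1088 CPM in high anxiety and 1069 CPM in low anxiety. High anxiety over low anxiety had 1 higher, Usp30, a deubiquitinase that opposes mitophagy, at 0.42, and 1 lower, Fkbp8, a mitophagy receptor, at -0.47. Urolithin A over low anxiety had 2 higher, Map1lc3a at 0.52 and Usp30 at 0.36, and 4 lower, Fkbp8 at -0.52, Mfn2, a fusion protein, at -0.35, Bnip3l, a mitophagy receptor, at -0.34 and Ppargc1a at -0.33. Medians were -0.01, -0.12 and -0.07.

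Among 20 striatal transcription factors, 0 were higher and 4 lower in urolithin A over high anxiety, with a median of -0.16. Foxp2, a forkhead factor of spiny neurons, stood at 247 CPM in urolithin A, 331 CPM in high anxiety and 268 CPM in low anxiety, and Foxo1, which acts in insulin signalling, at 152, 195 and 154 CPM. Both had their highest value in high anxiety. Tshz1 was at -0.49 and Mef2d at -0.32 in urolithin A over high anxiety. Foxo1 was the 1 factor higher in high anxiety over low anxiety, at 0.34, with 0 lower and a median of 0.05, and Tshz1, Nfia and Tcf4 were the 3 lower in urolithin A over low anxiety, at -0.78, -0.51 and -0.41, with a median of -0.12.

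Of 22 ionotropic glutamate receptor genes, Cnih2, an AMPA receptor partner, was higher at 0.46 and Grik4 and Grin2a were lower at -0.47 and -0.39 in urolithin A over high anxiety. Cnih2 was the 1 lower in high anxiety over low anxiety, at -0.49, and Grik1, Cacng2 and Grik4 were the 3 lower in urolithin A over low anxiety, at -0.43, -0.43 and -0.39. Of 18 GABA-A and glycine receptor genes, Slc32a1, the vesicular GABA transporter, was higher at 0.41 and Glrb at 0.36 in urolithin A over high anxiety. Glrb was the 1 lower in high anxiety over low anxiety, at -0.41. Medians were -0.11, 0.03 and -0.08 for the glutamate list and -0.05, -0.07 and -0.08 for the GABA list.

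Of 26 potassium channel genes, Kcnt2 was the 1 lower in urolithin A over high anxiety, at -0.92, with 0 higher. Kcna4, which gives a fast inactivating current, was the 1 higher in high anxiety over low anxiety, at 0.54, with 217 CPM in urolithin A, 250 CPM in high anxiety and 172 CPM in low anxiety. Against low anxiety, urolithin A had Kcna4 higher, at 0.33, and Kcnt2 lower, at -0.90. Of 27 sodium and calcium channel genes, Scn3a was the 1 lower in urolithin A over high anxiety, at -0.33. Scn4b and Scn3a were lower, at -0.36 and -0.33, in urolithin A over low anxiety, where Scn4b gave 0.033 with nuclei thinned to 4000 UMIs before the rule. Medians were -0.08, 0.04 and 0.02 for potassium channels and -0.09, 0.01 and -0.08 for the others.

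Cell adhesion and synapse organisers had 1 gene higher and 6 lower of 62 measured in urolithin A over high anxiety. Cntnap5a was the higher one, at 0.64 (0.52 to 0.76). Erbb4, the neuregulin receptor, was lower at -0.69, Cntn6 at -0.62, Cdh12 at -0.61, Ntm at -0.48, Cdh18 at -0.48 and Cntn4 at -0.42. The Erbb4 ratio turned, to 0.49 in nuclei held to 1% mitochondrial UMIs and 1000 or more genes and to 0.15 with 6 UMIs and a 5-fold excess asked of each class, and was -1.11 without other-class UMIs. Cdh12, a cadherin, stood at 373 CPM in urolithin A, 568 CPM in high anxiety and 382 CPM in low anxiety, and Ntm at 1623, 2266 and 2169 CPM. High anxiety over low anxiety had 4 higher, Ctnna3, Cdh12 at 0.57, Nrxn2 at 0.34 and Shank3, a postsynaptic scaffold, at 0.33, and 3 lower, Unc5c at -0.47, Cntnap5a at -0.38 and Cdh4 at -0.37, which gave 0.028 on the same thinning. Urolithin A over low anxiety had 3 higher and 9 lower, with Ctnna3 at 1.03 and Erbb4 at -0.66 the farthest from 0. Without other-class UMIs Erbb4 stood at 34.2 CPM in urolithin A and 36.0 CPM in low anxiety, so these libraries lay close there. Medians were -0.07, 0.00 and -0.06.

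Position in the accumbens could differ between punches, so genes that mark regions were set side by side. Of 9 shell and ventral genes, Nnat and Wfs1 were higher, at 0.78 and 0.54, and Nts lower in urolithin A over high anxiety. In high anxiety over low anxiety Ahi1 was higher, at 0.58, and Nnat, Wfs1 and Cartpt were lower, at -0.49, -0.45 and -0.34. In urolithin A over low anxiety Trhde was higher, at 0.50, and Nts lower, at -0.34. Of 10 core and dorsal genes, 0 were higher in any comparison, Sv2b was lower in urolithin A over high anxiety at -0.33, and Coch and Gpr155 were lower in high anxiety over low anxiety at -0.45 and -0.35. Medians were 0.18, -0.08 and 0.09 for the shell list and -0.05, 0.11 and -0.05 for the core list, and a part of position in other results was not tested.

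Patch and matrix genes gave 2 higher and 3 lower of 10 measured in urolithin A over high anxiety, Nnat and Gda higher and Kremen1, Tshz1 and Sv2b lower. Kremen1, a patch gene in mouse, stood at 94.0 CPM in urolithin A, 143 CPM in high anxiety and 103 CPM in low anxiety. High anxiety over low anxiety had Oprm1 and Kremen1 higher and Nnat lower, and urolithin A over low anxiety Oprm1 and Gda higher and Tshz1 lower. Medians were 0.06, 0.01 and 0.05. No gene passed the rule among 7 glucocorticoid response genes, 4 endocannabinoid genes or the 1 measured immediate early gene, Homer1, in any comparison. Their medians lay between -0.15 and 0.29. Of 3 D1-side genes measured outside the rule, Trhde was higher and Zfp521 lower in urolithin A over low anxiety, and 0 passed the rule in the other comparisons.

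Members also differed among themselves. Each nucleus was thinned to 3000 UMIs, and genes were ranked by the lowest of the 3 libraries' excess variation, the variance beyond counting divided by the squared mean. Over 4843 genes the median of that lowest value was -0.04. With all members the 20 most variable genes included Erbb4, Adarb2, Apoe and Gpc5, at 25.9, 13.7, 12.7 and 5.79, which interneurons, oligodendrocytes or astrocytes also express. Behind them came Nts, Cst3, Ubash3b, Pde1a, Rgs6, Chrm3, Hdac9, Edil3, Thsd7b, Sphkap, Tf, Myo5c, Grik1, Hs6st3 and Ntng1.

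Without the nuclei holding other-class UMIs, Nts was the most variable gene, with excess variation of 6.96 in urolithin A, 8.14 in high anxiety and 4.94 in low anxiety. It had 0 UMIs in 81.6%, 77.2% and 75.6% of these nuclei and at least 5 in 6 of 326, 11 of 356 and 8 of 320. Penk had 0 UMIs in 3.99%, 7.58% and 3.13% of them, but it is a gene of the rule, so the choice of members in part sets its presence. Across all members Nts correlated with Cartpt at r of 0.34, 0.28 and 0.30, with Pde4b, a cyclic AMP phosphodiesterase, at 0.38, 0.31 and 0.26 and with Vgf at 0.29, 0.22 and 0.23 (359, 385 and 356 nuclei of equal depth that share a library within each r). These partners were picked by the r closest to 0 of the 3 libraries, so a positive r in each follows from the choice. The r values are descriptions of which genes vary together and carry no test.

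After Nts the ranking held Rgs6, Pde1a, Zfp521, Ntng1, Ddc, Pde1c, Gpc5, Drd3 and LOC304725. Prkg1 correlated with Pde1c at r of 0.38, 0.32 and 0.33 in the 326, 356 and 320 nuclei left, with Egfem1 at 0.39, 0.25 and 0.32 and with Rgs6 at 0.32, 0.25 and 0.23. These pairs with Prkg1 were picked by the lowest r of the 3 libraries, so a positive r in each follows from the choice. Pde1c with Egfem1 gave 0.22, -0.049 and -0.049, and Rgs6 with Pde1c 0.14, 0.15 and -0.041. Prkg1 had 5 or more UMIs in 19.9%, 12.4% and 13.1% of them and 0 UMIs in 47.2%, 49.4% and 51.9%, as the plot of UMIs per nucleus shows. Rgs6, Pde1a and Drd3, the dopamine receptor of ventral striatum, were at 108, 102 and 73.1 CPM, 126, 84.4 and 97.7 CPM, and 46.6, 41.4 and 46.8 CPM in members, all below their D1 nuclei, where Drd3 stood at 141, 139 and 126 CPM.

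**Figure D5:**
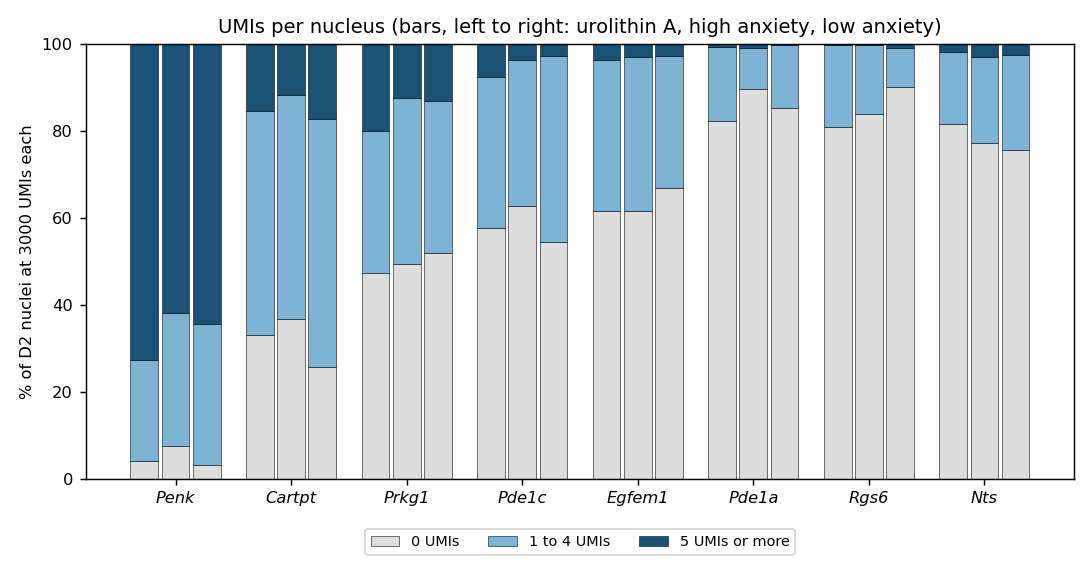
Share of D2 nuclei without Calcr and with under 5 other-class UMIs (vertical axis, percent) that held 0, 1 to 4 or at least 5 UMIs of each gene after thinning to 3000 UMIs, in 1 bar per library. Penk, a gene of the rule that chose the nuclei, is present in nearly all of them. Pde1a, Rgs6 and Nts have 0 UMIs in over 75% of nuclei in each library.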

How the data were processed

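The deposited files hold UMI counts per feature and barcode, which the authors produced by running Cell Ranger. Version 7.1.0 is named per the file headers, and the submitters' processing notes name build mRatBN7.2. Not given in the sources used here are the annotation and any removal of free RNA or doublets. The tables list 23098 features, 1814 of them without a symbol, and 583 of 599 list genes and 19 of 20 rule genes matched. Libraries were made with the Chromium 3′ kit, per the labels' protocols.

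Kept nuclei had 500 or more genes and mitochondrial UMIs of 5% or less. UMIs were summed per class and library and scaled to CPM, and genes with at least 300 UMIs in members over the 3 libraries were measured. With 1 library per group no test was made. Ratios carry exact conditional intervals (Clopper-Pearson, scipy 1.17.1), which were checked on simulated data, and ratios and shares cover counting error only. Genes were counted by a 1.5-fold rule and list members by a log2 ratio at least 0.32 from 0 with the interval apart from 0. D1 nuclei were chosen by the mirrored rule, and oligodendrocytes served as the class that should lack D2 genes. Per-nucleus shares, variation and correlations used nuclei thinned to 3000 UMIs (numpy 2.4.6, pandas 2.3.3). Doublets were kept in the main values. As an alternative they were scored with the Scrublet method of scanpy 1.11.5 at 0.8% per 1000 nuclei, which marked 99, 116 and 97 nuclei and removed 16, 5 and 22 members in urolithin A, high anxiety and low anxiety.

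The genes named are those of the rule and the D2 markers, the 10 with the most UMIs, the 8 highest and 8 lowest in each comparison, the 12 highest and 12 lowest against D1 nuclei, the 8 highest and 8 lowest against D2 nuclei with Calcr, the 20 most variable, and in each list up to 6 genes past the list rule. Genes named from the nuclei without other-class UMIs follow the same rule, and some named by it are not reported here. The members and lists were chosen with earlier results of these data known. Alternatives were scaling by the median of ratios, equal weight per nucleus, UMI minimums of 100 and 600 and none, stricter nuclei and rule limits, thinning to 4000 UMIs before the rule, and leaving out doublets or nuclei with glial or other-class UMIs.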

Additional observations from a re-analysis of the deposited data

How the results depend on the processing

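No paired analysis was possible because each group has 1 library. Values follow the order urolithin A, high anxiety, low anxiety, or that of the comparisons, which are urolithin A over high anxiety, then high anxiety over low anxiety, then urolithin A over low anxiety. With thinning to 4000 UMIs before the rule, members were 11.7%, 16.1% and 16.2% of the nuclei left and numbered 1.20, 1.63 and 1.38 per D1 nucleus. The stricter rule gave 1.27, 1.41 and 1.68 per D1 nucleus. Nuclei held to 1% mitochondrial UMIs and 1000 or more genes gave shares of 12.6% in high anxiety and 15.7% in low anxiety, and leaving out other-class UMIs gave 9.23% in low anxiety.

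Genes that reached 1.5-fold, higher and then lower, numbered 350 and 106, 288 and 366, and 419 and 190 with a minimum of 100 UMIs. They numbered 29 and 10, 30 and 33, and 40 and 11 with 600 UMIs, and 2789 and 1817, 2247 and 2769, and 2515 and 2303 with none. Thinning before the rule gave 12 and 10, 35 and 25, and 55 and 9. Stricter nuclei gave 48 higher, 42 higher and 53 lower, and 59 higher. Leaving out glial UMIs gave 49 higher and leaving out other-class UMIs 45 higher in urolithin A over high anxiety. With 100 UMIs, 60 genes reached a 2-fold lower level in D2 than in D1 nuclei. Scaling by the median of ratios reversed 0 of 205 gene values. That scaling moves all ratios of a comparison by the same amount, and these genes were chosen for ratios far from 0. Reversals were thus unlikely from the start.

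Reversed values in urolithin A over high anxiety were, on thinning before the rule, Apod -0.52, Mast4 -0.12, Ptgds -0.32, Rgs10 -0.063 and Rgs14 -0.090. Without doublets Cd9 gave -0.33 and Cldn11 -0.12, and Cldn11 gave -0.32 without glial and -0.38 without other-class UMIs. Erbb4 gave 0.49 in stricter nuclei and 0.15 under the stricter rule. In high anxiety over low anxiety Cd9 gave 0.35, 0.47 and 0.48, and Cldn11 0.53, 0.36 and 0.61, without glial UMIs, doublets and other-class UMIs. On thinning Cldn11 gave 0.26, Ptgds 0.21, Scg3 0.18, Sst 0.61 and Cdh4 0.028. In urolithin A over low anxiety thinning gave Cdh4 0.13, Npy 0.58, Sst 0.75, Rgs10 -0.029 and Scn4b 0.033. Leaving out other-class UMIs, a limit that bounds both genes, gave Npy 0.034 and Sst 0.30. Stricter nuclei gave Mt-co1 -0.080 and Mt-co3 -0.049. Thinning leaves 237, 334 and 284 members. The cause was not tested in any of these. Depth limits genes near the 300 UMI minimum, and with 1 library per group no alternative shows how animals vary.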
